A study of Mus musculus with 15 samples.

Results

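Molecular chaperones and protein folding genes were read in alveolar macrophages, which live in the air spaces of the lung and clear particles and microbes there. The genes were taken by symbol: the heat shock protein families (Hsp90, Hspa, Hspb, Hspd, Hspe, Hsph), the J domain proteins (Dnaja, Dnajb, Dnajc), the CCT chaperonin with Tcp1, the protein disulfide isomerases (Pdia), and calreticulin (Calr) and calnexin (Canx). This took 78 genes on 84 probes, out of 12909 genes with a symbol on 13972 of 17225 probes. A gene was fitted where each group had 3 or more arrays with a value. Of the 78 genes 68 could be fitted, among 13273 features in all, and 43 had values on all 15 arrays. The other 10, Cct6b, Dnajb5, Dnajc2, Dnajc5b, Hspa12b, Hspa2, Hspb3, Hspb7, Hspb9 and Hspbp1, had too few values and are given no difference. Hsp90ab1 and Hspb1 are not named on the array. Hspb11, Hspbp1 and Hspbap1 fit the pattern of the name only. Hspb11 is a ciliary transport protein, Hspbp1 a nucleotide exchange factor of Hsp70, and Hspbap1 a protein that binds small heat shock proteins.

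Each of 15 spotted 2-colour oligonucleotide arrays set total RNA of one macrophage sample against a common reference RNA. The 3 groups held 5 arrays each, and all mice had been given doxycycline: wild type mice (b6+/+Dox), mice lacking the integrin beta6 subunit (b6-/-Dox, called beta6 null), and beta6 null mice reconstituted with TGF-b1 (b6-/-TGFb+/+Dox, called the TGFb1 group). The labels do not name the promoter behind TGFb1 or the cells that make it, there was no group without doxycycline, and TGFb1 was not added in wild type mice. Nothing in the labels says that the arrays of a group came from different animals, and the spread behind each p-value may be a technical one.

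Integrin alphavbeta6 on lung epithelium activates latent TGFb, and alveolar macrophages depend on TGFb for their resident state. Chaperones bind proteins that are not yet folded or have lost their fold. In the cytosol the Hsp70 proteins take up a client with the help of a J domain protein, which triggers their ATPase, and pass it on to Hsp90 or to the ring-shaped CCT chaperonin, which folds actin and tubulin. In the endoplasmic reticulum the Hsp70 protein Hspa5 (BiP), Hsp90b1 (Grp94), the lectins calreticulin and calnexin, and the disulfide isomerases fold secreted and membrane proteins. In mitochondria Hspa9 draws proteins in and the chamber of Hspd1 (Hsp60) and its lid Hspe1 (Hsp10) folds them. The cytosolic set is classically under heat shock factor, and the set of the endoplasmic reticulum under the factors of the unfolded protein response, Atf6 and Xbp1.

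These classical sites can be seen in the promoters of members, which is why a few are shown. RefSeq promoter windows (build GRCm38.p6, 250 bases before to 50 bases after a start) were found for 66 of the 78 genes, in 84 windows, and both strands were searched. The ER stress element, searched as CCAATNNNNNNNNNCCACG, was in 6 of the 84 member windows (7.14%) and in 0.119% of all 32851 windows. The 6 genes were Hspa5, Hsp90b1, Calr, Canx, Pdia6 and Dnajc3, and each works in the endoplasmic reticulum. The stretches below run 5′ to 3′ on the strand of the gene, with both ends of the element in capitals. CCAAT and CCACG mark a forward match, and CGTGG and ATTGG a match on the other strand.
Hspa5, chr2:34772005-34772063, plus strand: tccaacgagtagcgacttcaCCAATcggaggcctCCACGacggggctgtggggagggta
Dnajc3, chr14:118937807-118937865, plus strand: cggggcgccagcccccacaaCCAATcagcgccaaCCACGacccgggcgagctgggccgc
Pdia6, chr12:17266471-17266529, plus strand: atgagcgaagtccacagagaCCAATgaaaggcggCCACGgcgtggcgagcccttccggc
Canx, chr11:50325780-50325838, minus strand: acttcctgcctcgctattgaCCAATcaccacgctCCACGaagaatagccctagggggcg
Calr, chr8:84847055-84847113, minus strand: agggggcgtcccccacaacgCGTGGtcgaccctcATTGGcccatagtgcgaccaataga
Hsp90b1, chr10:86705513-86705676, minus strand, with 2 matches: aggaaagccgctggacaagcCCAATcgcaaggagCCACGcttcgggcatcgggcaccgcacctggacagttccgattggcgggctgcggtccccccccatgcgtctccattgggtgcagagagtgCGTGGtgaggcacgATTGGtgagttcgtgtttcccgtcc

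The heat shock element, searched as 3 alternating units in GAANNTTCNNGAA, was also in 6 of the 84 member windows (7.14%), against 0.603% of all windows. These belonged to 4 genes, Hspd1, Hspe1, Dnajb6 and Hsph1, the match of Hsph1 lying after the start. Dnajb6 and Hsph1 were each counted in 2 overlapping windows that hold the same match, so the share of windows counts some sites more than once. Hspd1 and Hspe1 are neighbours that point away from each other, and the same stretch lies before both starts. It is printed once for each gene, on that gene's strand, with the GAA and TTC units in capitals. The matches on the 2 strands overlap there and make 4 units in a row.
Hspe1, chr1:55088039-55088096, plus strand: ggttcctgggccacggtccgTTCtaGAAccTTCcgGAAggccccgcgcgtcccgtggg
Hspd1, chr1:55088039-55088096, minus strand: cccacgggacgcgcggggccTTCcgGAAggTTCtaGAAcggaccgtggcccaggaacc
Dnajb6, chr5:29735832-29735884, plus strand: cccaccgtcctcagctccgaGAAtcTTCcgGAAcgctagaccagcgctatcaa
The shorter ER stress element II, ATTGGNCCACG, was in 1 member window (1.19%, Dnajb11, after the start) and in 0.0365% of all windows. A match is a description of letters, and a window without one shows only that these letters are not in it.

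Values are log ratios of sample over reference, taken as log2 after centring each array on its median. The files and labels state neither the base nor the direction. Sample over reference is called likely, since the reference was labelled as channel 1 and macrophage elastase (Mmp12) reads high in beta6 null; were it inverted, every sign here would turn. A value of 0 means a level equal to the reference, and values of different genes do not rank their levels. In a bulk sample, fewer cells of a type and less RNA per cell cannot be told apart.

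No chaperone gene passed an adjusted p of 0.05 in limma in any comparison, so all differences below are given as values. Between beta6 null and wild type 0 of 68 passed, beside 0.949% of all features. For the TGFb1 group against beta6 null 0 of 68 passed, beside 0.708%, and against wild type 0 of 68, beside 0%. The smallest adjusted p among chaperones was 0.0709 for Hspa4l in beta6 null against wild type, 0.0637 for Dnajb9 when the TGFb1 group was set against beta6 null, and 0.651 for Hspa1a in the TGFb1 group against wild type.

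By the median of the gene differences, the chaperones lay lower in beta6 null macrophages than in wild type ones, more so than all features. They lay higher in the TGFb1 group than in beta6 null, again more so than all features. In beta6 null against wild type, 21 of 68 differences were above 0, with a median of -0.30. Over all features 46.9% were above 0, with a median of -0.05. The chaperone median there was -0.227 with quantile normalization, -0.216 with an equal spread and -0.209 with array weights. In the TGFb1 group against beta6 null, 55 of 68 were above 0, with a median of 0.51, where all features gave 56.7% and 0.12. With quantile normalization the count was 47 and the median 0.297, with the arrays set to an equal spread 50 and 0.285, and with array weights 49 and 0.271. In the TGFb1 group against wild type, 45 of 68 were above 0, with a median of 0.19, where all features gave 55.4% and 0.07. That median was 0.088 with quantile normalization, 0.105 with an equal spread and 0.074 with array weights. The first and second of these comparisons share the beta6 null arrays, so low values there move both. A median was also taken on each array, over the 43 chaperones with values on every array. It ran from -0.58 to -0.10 in wild type (mean -0.33) and from -0.91 to -0.26 in beta6 null (mean -0.46), so these groups overlapped. With TGFb1 it ran from -0.20 to 0.057 (mean -0.066), above every beta6 null array but overlapping wild type.

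Counts before adjustment were read by direction. In beta6 null against wild type, 1 chaperone had an unadjusted p under 0.05 with a higher value (4.28% of all features did), and 4 with a lower one (7.20%). In the TGFb1 group against beta6 null these were 12 higher (11.1%) and 2 lower (3.85%). Against wild type they were 7 higher (4.25%) and 0 lower (2.03%). So 12 of 68 (17.6%) and 7 of 68 (10.3%) exceed the shares over all features, and 4 of 68 (5.88%) lower in beta6 null is near its share. These counts were not tested as a set.

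A stricter view counts genes whose groups do not overlap on any array. In beta6 null against wild type 0 chaperones lay wholly higher (2.06% of all features) and 1 wholly lower (3.06%), the synaptic vesicle protein Dnajc5. In the TGFb1 group against beta6 null 6 lay wholly higher (6.36%) and 0 wholly lower (1.91%). The 6 were Dnajb9, Dnaja1, Dnaja2, Dnajb8, Dnajc12 and Hspbap1, all J domain proteins but the last. The 68 fitted chaperones held 4 Dnaja, 11 Dnajb and 19 Dnajc genes. Against wild type 1 lay wholly higher (1.79%), Dnajc12, and 0 wholly lower (1.09%). Dnajc12 had values on 3, 3 and 4 arrays of the groups. Of the 68 chaperones, 6 genes make 8.82% and 1 gene 1.47%, close to the shares over all features given in brackets. Dnajc12 and Dnaja2 here, and Hspa4, Hspa14, Hspa1l, Dnajb6, Dnajb14 and Dnaja3 further on, fall outside the rule for naming genes and were chosen after their values were seen.

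**Figure D1:**
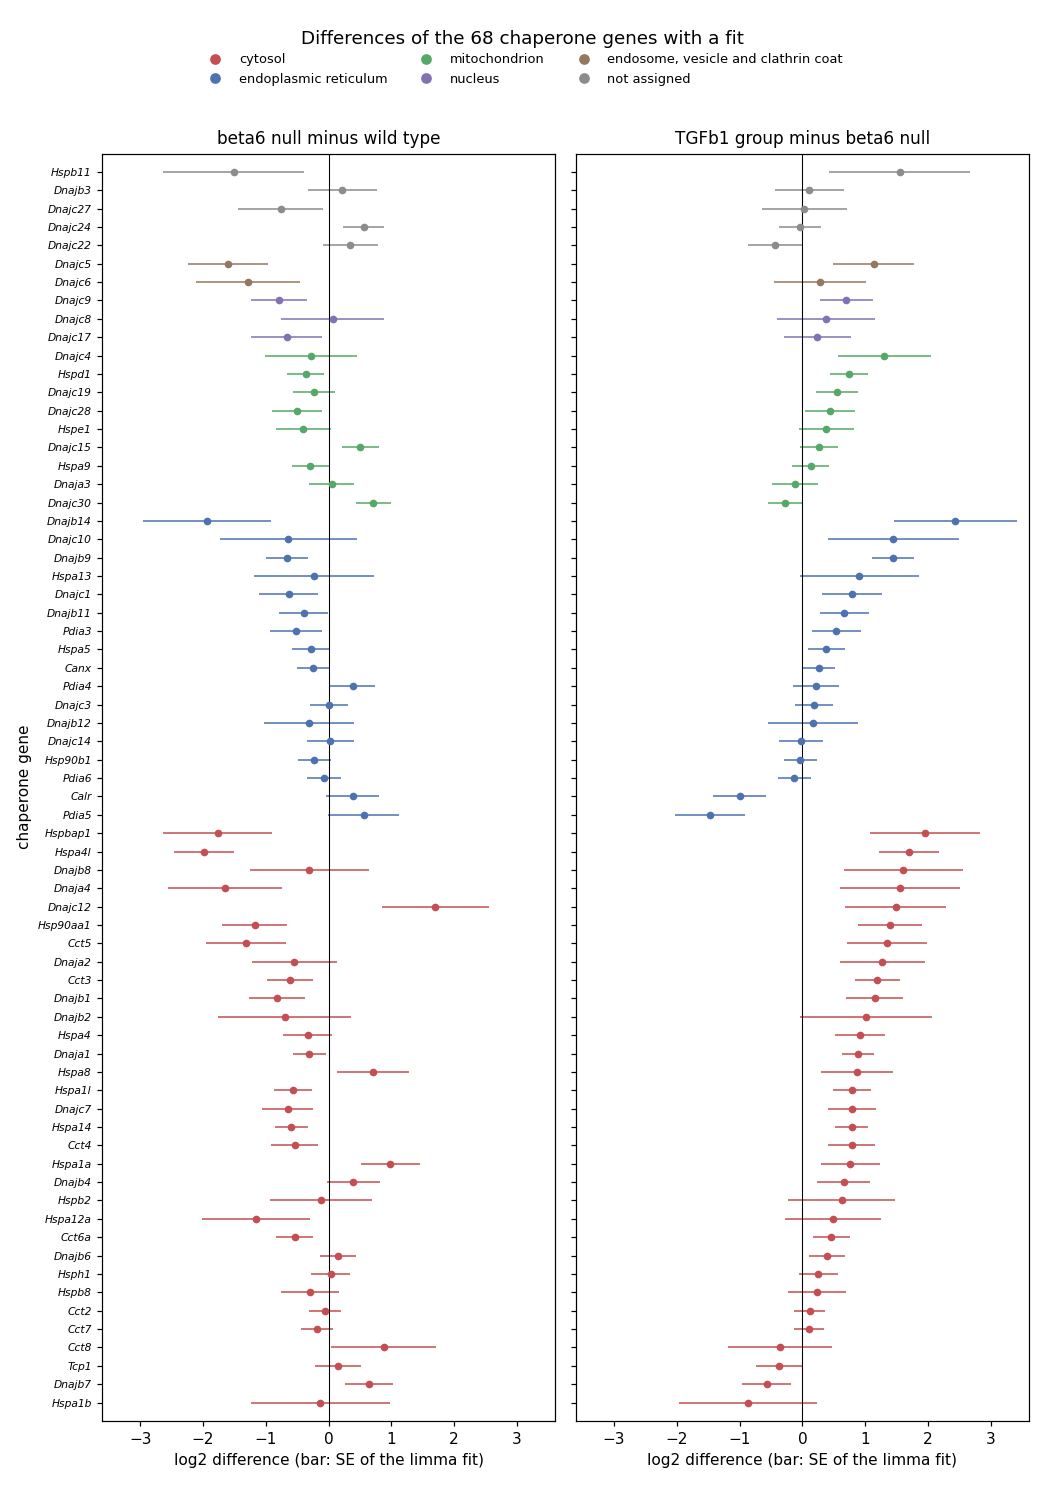
Log2 differences of the 68 fitted chaperone genes, with bars for the standard error of the limma fit. The left panel is beta6 null minus wild type and the right panel the TGFb1 group minus beta6 null, with genes coloured by compartment. Most cytosolic genes lie left of 0 in the first (23 of 32) and right of 0 in the second (28 of 32), while Calr and Pdia5 lie left of 0 in the second.

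Among the 3 large compartments, the cytosolic chaperones had the medians farthest from 0 in the comparisons with beta6 null. The mitochondrial median was farther in the TGFb1 group against wild type, at 0.32 against 0.23 for the cytosol. Of 32 cytosolic genes, 23 had a value below 0 in beta6 null against wild type (median -0.32), and 28 a value above 0 in the TGFb1 group against beta6 null (median 0.79). For 17 genes of the endoplasmic reticulum these were 12 below 0 (median -0.25) and 12 above 0 (median 0.26). For 9 mitochondrial genes they were 6 below 0 (median -0.28) and 7 above 0 (median 0.38, with 6 above 0 under quantile normalization and 8 with an equal spread). Whether compartments differ from each other was not tested.

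Medians were also taken on each array. Over the 21 cytosolic genes with values on all 15 arrays, the median was -0.55, -0.13, -0.48, -0.78 and -0.23 on the wild type arrays. It was -1.56, -1.01, -0.78, -0.91 and -0.82 on the beta6 null arrays, and 0.049, -0.046, 0.024, -0.49 and -0.52 with TGFb1. Every beta6 null array lay below every array of both other groups, with wild type replicate 4 and beta6 null replicate 3 nearly level, and the wild type and TGFb1 arrays overlapped. The group means were -0.43 ± 0.26 (SD, n = 5), -1.02 ± 0.32 and -0.20 ± 0.28. The arrays were not set to an equal spread for these medians. Over all values of an array, the SD was 1.998, 1.487 and 1.619 on beta6 null replicates 1, 2 and 3, and 2.008 on wild type replicate 2. Whether the separation holds at an equal spread was not tested.

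Over the 10 genes of the endoplasmic reticulum the groups overlapped. Their medians ran from -1.04 to -0.0030 in wild type, from -0.89 to -0.18 in beta6 null and from -0.41 to 0.14 with TGFb1. Over the 9 mitochondrial genes they ran from -0.42 to 0.12, from -0.80 to 0.10 and from 0.059 to 0.39, also overlapping. Over all 6592 features on every array the medians stayed between -0.25 and 0.14.

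**Figure D2:**
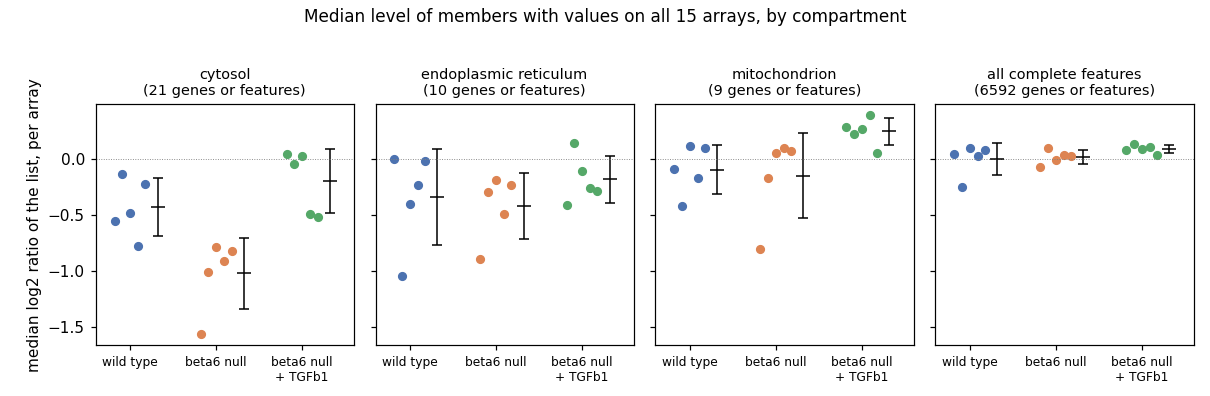
Median log2 ratio to the reference on each array, over the members of a compartment with values on all 15 arrays, and over all such features. Points are arrays, black bars the mean and SD of 5 arrays. In the cytosol panel the 5 beta6 null arrays (-1.56 to -0.78) lie below all others, and in the other panels the groups overlap. The arrays are not set to an equal spread.

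Of the cytosolic Hsp90 pair the array names only the inducible form, Hsp90aa1. Hsp90aa1 read -1.17, -2.03, -1.03, -1.43 and -0.11 on the 5 wild type arrays, -4.09, -2.64, -1.53, -2.03 and -1.37 on the 5 beta6 null arrays, and -0.31, -0.92, -0.30, -1.43 and -1.74 on the 5 TGFb1 arrays. Beta6 null held the lowest arrays, yet its highest array lay above the lowest of either other group. The difference was -1.18 (SE 0.51, adjusted p = 0.383) in beta6 null against wild type and 1.40 (SE 0.51, adjusted p = 0.212) in the TGFb1 group against beta6 null.

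Among the Hsp70 and Hsp110 proteins, 11 of 12 fitted genes were above 0 in the TGFb1 group against beta6 null (median 0.78), and 9 of 12 below 0 in beta6 null against wild type (median -0.29). Hspa4l, an Hsp110 relative that resets Hsp70 by exchanging its nucleotide, stood 3.96-fold lower in beta6 null than in wild type. It read -0.52, -0.13, -0.57, -0.92 and 0.26 on the 5 wild type arrays, -3.16, -1.53, -3.62, -2.58 and -0.91 on the 5 beta6 null arrays, and -0.78, -0.0040, -1.10, -1.25 and -0.20 on the 5 TGFb1 arrays. All beta6 null arrays but one lay below every wild type array, and that one, replicate 5, lay level with wild type replicate 4. The difference was -1.99 (SE 0.47, adjusted p = 0.0709), and 1.70 (SE 0.47, adjusted p = 0.106) in the TGFb1 group against beta6 null. Without beta6 null replicate 5 both passed, at -2.35 (adjusted p = 0.0165) and 2.06 (adjusted p = 0.0427). That array was the highest of beta6 null, so leaving it out had to enlarge both differences. Over all alternatives the adjusted p ran from 0.0165 to 0.446 and from 0.0427 to 0.523. The related Hspa4 gave -0.33 and 0.92, and Hsph1, another of this family, 0.033 and 0.25.

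The heat-inducible Hsp70, Hspa1a, had a different order from most cytosolic chaperones, since wild type was lowest. It read 1.38, 1.05, 2.43, 0.97 and 1.20 on the 5 wild type arrays, 2.73, 1.78, 3.23, 1.42 and 2.79 on the 5 beta6 null arrays, and 3.21, 3.004, 4.54, 2.93 and 2.07 on the 5 TGFb1 arrays. The group means were 1.40 ± 0.59, 2.39 ± 0.76 and 3.15 ± 0.89 (SD, n = 5), and of the wild type arrays only replicate 3, at 2.43, lay within the range of the TGFb1 arrays. Replicates 1, 3 and 5 of beta6 null also lay in it. The difference in the TGFb1 group against wild type was 1.75 (SE 0.47, adjusted p = 0.651), and 0.98 (SE 0.47, adjusted p = 0.440) in beta6 null against wild type. Its near-identical copy Hspa1b was measured on 11 arrays and gave -0.99 (SE 1.02) against wild type; the probes of such copies may share signal, so both are uncertain.

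Hspa8, the constitutive Hsp70 that also uncoats clathrin vesicles, likewise read lowest in wild type. Its values were -2.03, -4.03, -1.70, -2.39 and -1.65 on the 5 wild type arrays, -2.45, -1.87, -1.21 and -1.06 on the 4 beta6 null arrays with a value, and 0.014, -1.97, 0.41, -1.18 and -1.15 on the 5 TGFb1 arrays. The TGFb1 group overlapped wild type by 1 array, replicate 2. The difference against wild type was 1.58 (SE 0.54, adjusted p = 0.757), and that in the TGFb1 group against beta6 null 0.87 (SE 0.57, adjusted p = 0.507). Hspa14 and Hspa1l, a ribosome-bound and a testis-rich Hsp70, gave 0.79 (SE 0.26, adjusted p = 0.169) and 0.79 (SE 0.30, adjusted p = 0.227) in the TGFb1 group against beta6 null.

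Of the cytosolic J domain proteins, Dnaja1, a partner of Hspa8, separated the TGFb1 group from beta6 null. It read 0.52, -0.0080, 0.44, 0.19 and 0.38 on the 5 wild type arrays, -0.14, -0.20, 0.31, 0.11 and -0.081 on the 5 beta6 null arrays, and 0.94, 1.497, 1.09, 0.39 and 0.48 on the 5 TGFb1 arrays. The lowest TGFb1 array lay just above the highest beta6 null array, and wild type overlapped both. The difference was 0.88 (SE 0.26, adjusted p = 0.118), or 1.84-fold. It passed with array weights (0.85, adjusted p = 0.0396), and the adjusted p over all alternatives ran from 0.0396 to 0.675. Dnaja2 gave 1.27 (SE 0.67), with its beta6 null mean resting on replicate 1, at -4.53.

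Dnajb1 (Hsp40), the inducible partner of Hspa1a, read -0.52, 0.78, -0.30, -0.25 and 0.27 on the 5 wild type arrays, -1.92, -1.47, 0.25, -0.47 and -0.52 on the 5 beta6 null arrays, and 0.60, 0.23, 1.17, 0.45 and -0.83 on the 5 TGFb1 arrays. Replicates 1 and 2 of beta6 null were lowest, and the groups overlapped. The differences were -0.82 (SE 0.45, adjusted p = 0.501) against wild type and 1.15 (SE 0.45, adjusted p = 0.241) in the TGFb1 group against beta6 null. Across families, the median in the TGFb1 group against beta6 null was 1.08 for 4 Dnaja genes (3 above 0), 0.67 for 11 Dnajb genes (10 above 0) and 0.37 for 19 Dnajc genes (15 above 0). For Dnajc it was 0.066 with quantile normalization (10 above 0) and 0.077 with an equal spread (12 above 0).

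**Figure D3:**
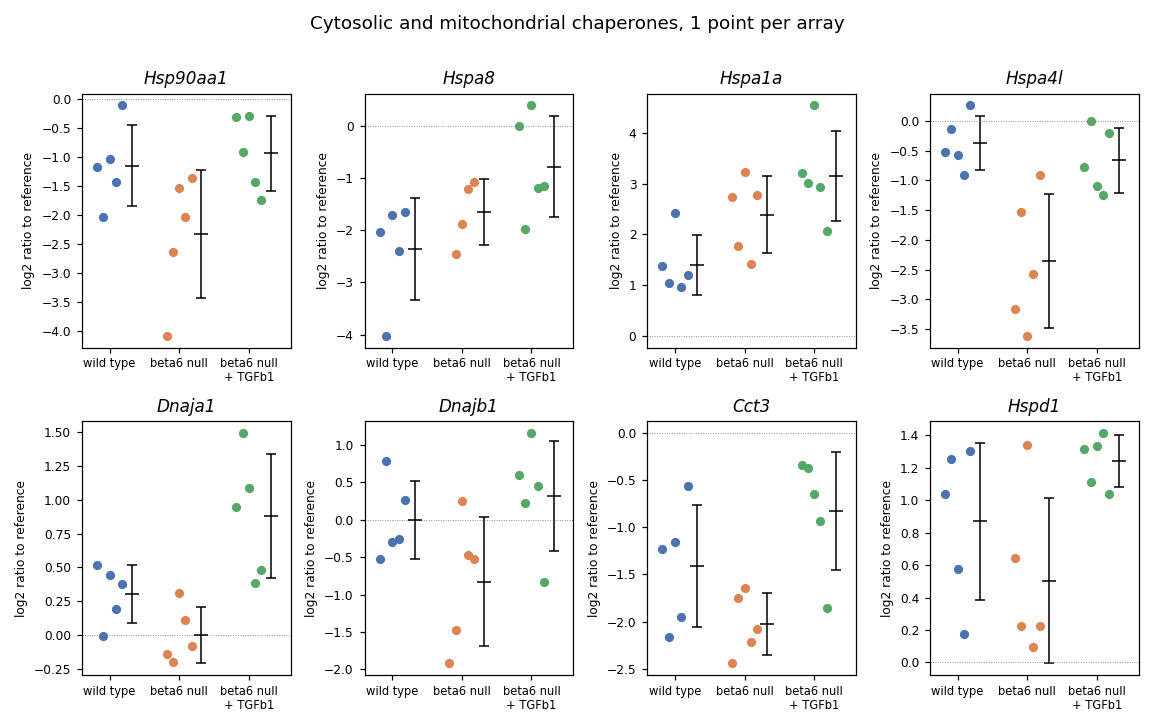
Log2 ratio to the reference of 7 cytosolic chaperones and of mitochondrial Hspd1 on each array, with black bars for mean and SD; each panel has its own axis. Hspa4l and Hsp90aa1 are lowest on beta6 null arrays, Hspa1a and Hspa8 on wild type arrays, and all TGFb1 arrays of Dnaja1 lie above all beta6 null arrays.

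The CCT ring is built of subunits that act together, but its genes did not share one pattern. Cct3 read -1.23, -2.16, -1.15, -1.95 and -0.57 on the 5 wild type arrays, -2.44, -1.75, -1.65, -2.22 and -2.08 on the 5 beta6 null arrays, and -0.34, -0.37, -0.65, -0.94 and -1.86 on the 5 TGFb1 arrays. Of the TGFb1 arrays only replicate 5 lay among the beta6 null arrays, as did wild type replicates 2 and 4. The difference was 1.20 (SE 0.36, adjusted p = 0.138) in the TGFb1 group against beta6 null. Cct5 gave 1.34 and Cct4 0.78, Cct2 0.11 and Cct7 0.10, and Tcp1, the subunit that names the complex, -0.38. The value of Cct5 rests partly on beta6 null replicate 1, at -5.20. Of 8 fitted subunits 6 were above 0 (median 0.29), and 4 with quantile normalization or with an equal spread.

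In the mitochondrion, Hspd1 read 1.04, 1.26, 0.57, 0.17 and 1.31 on the 5 wild type arrays, 0.64, 0.22, 1.34, 0.092 and 0.23 on the 5 beta6 null arrays, and 1.32, 1.11, 1.34, 1.42 and 1.04 on the 5 TGFb1 arrays. All TGFb1 arrays lay between 1.04 and 1.42, and 1 beta6 null array, replicate 3, lay among them. The difference was 0.74 (SE 0.30, adjusted p = 0.261) in the TGFb1 group against beta6 null. It passed with array weights (0.97, adjusted p = 0.0389), and over all alternatives the adjusted p ran from 0.0389 to 0.650. Its lid Hspe1, which shares the promoter stretch printed above, gave 0.38 (SE 0.43, adjusted p = 0.729), with beta6 null replicate 1 at -1.74. Hspa9, the mitochondrial Hsp70, gave 0.13 (SE 0.30). The other 2 genes with a heat shock element in their window gave 0.39 (Dnajb6, SE 0.28) and 0.25 (Hsph1, SE 0.32).

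In the endoplasmic reticulum the smallest adjusted p belonged to Dnajb9 (ERdj4), a J domain partner of BiP that restrains the stress sensor Ire1 and helps clear misfolded proteins. It was 2.72-fold higher in the TGFb1 group than in beta6 null. Dnajb9 read -1.18, -1.97, -1.22, -1.22 and -0.64 on the 5 wild type arrays, -2.46, -2.29, -1.63, -1.64 and -1.49 on the 5 beta6 null arrays, and -1.07, 0.31, -0.14, -0.47 and -0.94 on the 5 TGFb1 arrays. Every TGFb1 array lay above every beta6 null array, and wild type lay between with overlap on both sides. The difference was 1.44 (SE 0.34, adjusted p = 0.0637), and -0.66 (SE 0.34, adjusted p = 0.473) in beta6 null against wild type. It passed without wild type replicate 2 (adjusted p = 0.0274), without the 2 widest arrays (0.0441), over features on all 15 arrays (0.0265) and with array weights (0.0177). The adjusted p over all alternatives ran from 0.0177 to 0.562. Dnajb14, a membrane-bound J domain protein, gave a larger difference, 2.44 (SE 0.97, adjusted p = 0.267), over 3 beta6 null arrays of which replicate 2 read -6.35.

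Of the main folding proteins of this compartment, none passed the test. Hspa5 read 0.16, -0.58, -0.66, -0.13 and 0.27 on the 5 wild type arrays, -0.88, -0.0030, -0.042, -1.15 and -0.26 on the 5 beta6 null arrays, and -0.016, 0.23, -0.14, -0.15 and -0.37 on the 5 TGFb1 arrays, and the groups overlapped throughout. Its differences were -0.28 (SE 0.30, adjusted p = 0.741) against wild type and 0.38 (SE 0.30, adjusted p = 0.581) with TGFb1. Hsp90b1 gave -0.23 and -0.037 in the same comparisons, Pdia6 -0.073 and -0.13, Canx -0.25 and 0.26, and Dnajc3 (p58IPK), an inhibitor of the kinase Perk, 0.011 and 0.19. These 5 carry the ER stress element printed above, and their standard errors ran from 0.25 to 0.30, which limits how small a difference could be seen. The 2 probes of Canx had opposite signs in the TGFb1 group against beta6 null, as had those of Dnaja3.

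The sixth gene with that element, Calr, a lectin and calcium store, had a difference below 0 in the TGFb1 group against beta6 null. Calr read 0.97, 0.65, 0.30, 0.36 and 0.21 on the 5 wild type arrays, 1.88, 0.82, 0.12 and 0.71 on the 4 beta6 null arrays with a value, and -1.06, -0.41, 0.99, -0.23 and 0.15 on the 5 TGFb1 arrays. TGFb1 replicate 3, at 0.99, lay among the others, and the groups overlapped. The difference was -0.997 (SE 0.42, adjusted p = 0.291). Pdia5, a disulfide isomerase, read 0.69, -0.55, -0.22 and -0.65 on the 4 wild type arrays with a value, 0.61, 0.55, 0.58, 0.28 and -0.13 on the 5 beta6 null arrays, and -0.088, -2.79, -1.80 and 0.30 on the 4 TGFb1 arrays with a value. Its difference of -1.47 (SE 0.56, adjusted p = 0.239) rested on TGFb1 replicates 3 and 4, at -2.79 and -1.80. Pdia3, the isomerase that works with both lectins, gave 0.54, Pdia4 0.21 and Dnajb11, a J domain partner of BiP, 0.67. The difference of Pdia3 turned its sign with quantile normalization, an equal spread and array weights, the lowest value being -0.058.

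**Figure D4:**
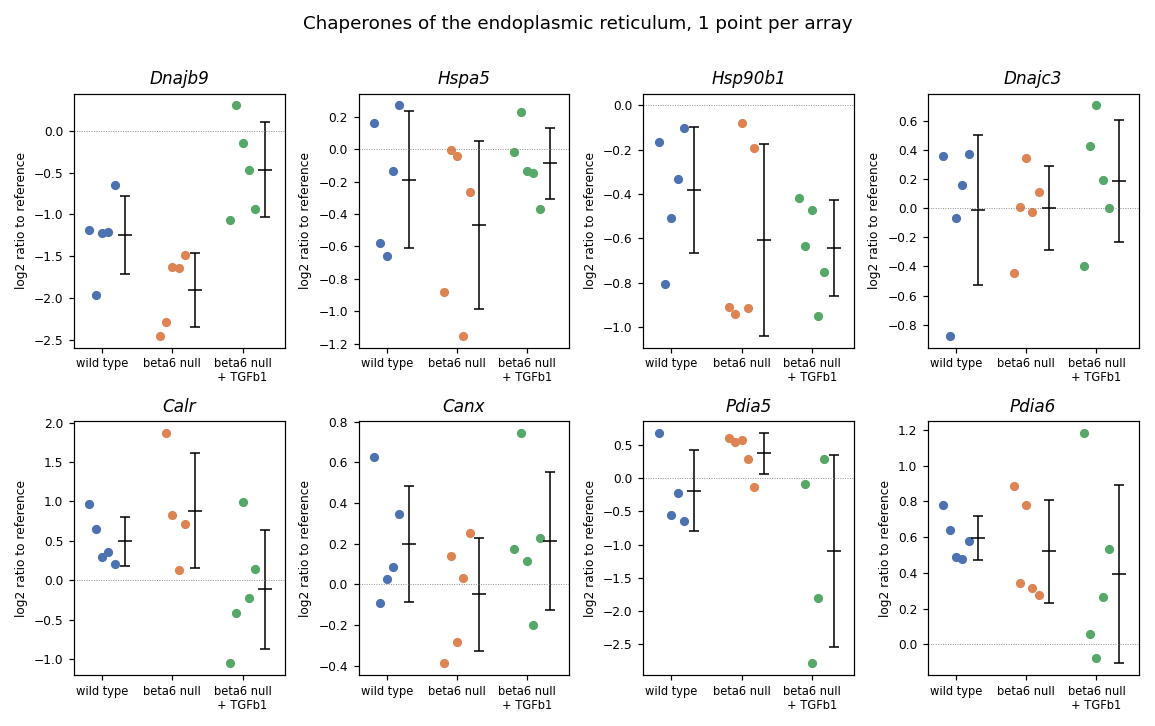
Log2 ratio to the reference of 8 chaperones of the endoplasmic reticulum on each array, with black bars for mean and SD; each panel has its own axis. For Dnajb9 all TGFb1 arrays (-1.07 to 0.31) lie above all beta6 null arrays (-2.46 to -1.49), and for the other 7 the groups overlap.

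By median correlation, members of the endoplasmic reticulum and of the cytosol tended to deviate together from array to array, and mitochondrial ones did not. Over the deviations from group means on 15 arrays, the median pairwise correlation was 0.44 among the 10 genes of the endoplasmic reticulum (45 pairs), 0.19 among the 21 cytosolic genes and 0.0035 among the 9 mitochondrial ones. It was 0.022 over all features on every array. The points share arrays and their quality, and without the 2 widest arrays these values were 0.19, 0.25, 0.0094 and 0.024. The value of the endoplasmic reticulum thus rests in part on those 2 arrays, and without beta6 null replicate 1 alone it was 0.39. Dnajb9 and Dnajc3 were its closest pair (r = 0.82, 15 arrays).

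Other folding genes, from lists of partners that are not members, gave 0 passed in each comparison. In the TGFb1 group against beta6 null, 7 of 19 heat shock factors and cochaperones had a higher value at an unadjusted p under 0.05 and 1 a lower one. These were 3 and 1 of 9 prefoldin and tubulin cofactors, 4 and 0 of 36 genes of the unfolded protein response and 4 and 0 of 14 of mitochondrial quality control, beside the 11.1% and 3.85% of all features. The smallest adjusted p values belonged to Grpel1, the nucleotide exchange factor of Hspa9, at 1.74 (SE 0.39, adjusted p = 0.0620), and to Xbp1, at 1.30 (SE 0.32, adjusted p = 0.0772). Both had every TGFb1 array above every beta6 null array. In beta6 null against wild type, 3 cochaperones, 2 genes of the unfolded protein response and 1 of mitochondrial quality control had a lower value at that level, and 2 of the unfolded protein response a higher one, beside 7.20% and 4.28% of all features. The Hsp90 cochaperone Ppid gave -0.98 (SE 0.24, adjusted p = 0.0728) and Ddit3 (Chop), a death-promoting factor of the stress response, 1.63 (SE 0.496, adjusted p = 0.178). These 4 were chosen after their values were seen.

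Array quality and other cells moved with the groups. The arrays with the widest values were replicate 2 of wild type (SD 2.008) and replicate 1 of beta6 null (SD 1.998). They lacked 17 and 21 of the 78 genes, where the others lacked 2 to 14. Without beta6 null replicate 1 the median of the chaperones in beta6 null against wild type was -0.17 and that of the mitochondrial genes -0.082. Without both, the cytosolic median was -0.36 there and 0.71 in the TGFb1 group against beta6 null (27 of 29 above 0), while the mitochondrial median was 0.0031 and 0.14. Leaving out these arrays thus changed the cytosolic medians little, but it did not remove all wide arrays. Replicates 2 and 3 of beta6 null stayed in and were also wide (SD 1.487 and 1.619), where the remaining arrays ran from 0.841 to 1.412. With all arrays set to an equal spread, the median of all chaperones in the TGFb1 group against beta6 null fell to 0.285. The cytosolic median in that comparison fell from 0.79 to 0.51 (26 of 32 above 0). In beta6 null against wild type the cytosolic median was -0.29 at an equal spread (23 of 32 below 0), where it had been -0.32. The part of array width in the cytosolic values was not tested.

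Xist, an RNA of the inactive X chromosome in female cells, ran from -2.46 to 0.88 on beta6 null arrays, from -4.14 to -2.37 on wild type and from -3.48 to -2.27 with TGFb1. With its level as a covariate the median of the chaperones was -0.43 in beta6 null against wild type and 0.67 in the TGFb1 group against beta6 null. In that fit 0 of all features passed in either comparison, beside 126 and 94 without the covariate. The smallest adjusted p among chaperones was then 0.446 and 0.523. Since Xist itself differed between the groups, this fit cannot separate its level from the group. Of 12 alveolar macrophage markers fitted, 11 were above 0 in the TGFb1 group against beta6 null (median 0.67), Pparg passing at 1.84 (SE 0.35, adjusted p = 0.0332). A ratio to the common reference cannot show that a marker is absent.

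Markers of other cells differed too. The per-array median of 4 neutrophil markers ran from -1.001 to 0.0070 in wild type, from -0.026 to 1.02 in beta6 null and from -0.998 to 0.55 with TGFb1, and S100a8 rose in beta6 null by 2.13 (SE 0.29, adjusted p = 0.00148). Over all 8 fitted neutrophil markers, 4 were above 0 in beta6 null against wild type and 4 below (median 0.12), and 6 were below 0 in the TGFb1 group against beta6 null (median -0.74). All 6 fitted B and plasma cell markers were above 0 in beta6 null against wild type (median 1.36), 1 of them passing (adjusted p = 0.0408). In the TGFb1 group against beta6 null 5 were below 0 (median -1.17). Of 12 epithelial markers 8 were above 0 in beta6 null against wild type, Sftpc passing higher (2.18) and Epcam and Krt19 lower (-2.34 and -2.01). When the TGFb1 group was set against beta6 null 4 were above 0, with Epcam and Krt19 passing higher (1.98 and 2.37). Of 11 T and NK cell markers 7 and 4 were above 0 in these comparisons, of 6 fibroblast and endothelial markers 2 and 3, and of 2 erythroid markers 2 and 1. Among the fibroblast and endothelial markers 1 passed lower in beta6 null against wild type (adjusted p = 0.0409). The part of these other cells in the chaperone values was not tested.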

How the data were processed

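The deposited table holds 1 log ratio per probe and array, treated as log2. Dyes, background correction and any normalization by the authors of these deposited log2 ratios are not named in the file headers or labels. The members and all gene lists were chosen with earlier results of these data known. Of 17225 probes 30 control spots were left out. Probes named with 1 gene symbol in the platform annotation were averaged by gene (6 members have more than 1), and RefSeq's GRCm38.p6 table held 13869 of the symbols by Entrez ID. Each array was centred on its median. Features measured on 3 or more arrays in each group were fitted with 3 group means by limma 3.58.1 (lmFit, eBayes) in R 4.3.3, with Benjamini-Hochberg adjustment over all 13273 features and a threshold of 0.05. A difference carries the standard error of the fit, and a mean the SD over arrays. The number of arrays limits the precision. Named were 40 genes: 29 core chaperones and, in each comparison, the 4 largest differences in each direction among members measured on 4 or more arrays in both. Exact permutation tests were set for members that passed, and none did. The fit was also run on simulated data, with independent normal values for each feature. Such data do not copy the uneven widths of the arrays, so this checked the calculation only. The alternatives changed the centring, scaling, filter on missing values, probe averaging, symbols, arrays, array weights, the title suffix as a block and Xist as a covariate. Figures were drawn with matplotlib 3.10.9.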

Additional observations from a re-analysis of the deposited data

Results flagged for a closer look

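Of 115 groups of arrays looked at for the named chaperones, 3 held an array far from the other 4, where chance gives about 1 in 20. Dnajb11 read -2.75 on beta6 null replicate 1, where the other arrays of that group lay between -1.13 and -0.72. Pdia4 read -2.38 on wild type replicate 2, against -0.65 to -0.28 on the others. These are the 2 widest arrays. Hspa1a read 2.43 on wild type replicate 3, against 0.97 to 1.38 on the others.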

How the results depend on the processing

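The counts that passed and the medians of all chaperones were recomputed under 28 alternatives. The count of chaperones that passed in beta6 null against wild type was 1 over features on all 15 arrays (Hspa4l, adjusted p = 0.0343), and 0 to 1 when 1 array was left out. In the TGFb1 group against beta6 null it was 1 over features on all 15 arrays, 1 without the 2 widest arrays, 3 with array weights (Dnajb9, Dnaja1 and Hspd1), and 0 to 1 when 1 array was left out (Dnajb9 without wild type replicate 2, Hspa4l without beta6 null replicate 5). Against wild type it was 0 under all 28. The median difference of the chaperones in the TGFb1 group against beta6 null was 0.297 with quantile normalization, 0.285 with an equal spread and 0.271 with array weights, and 0.417 to 0.615 when 1 array was left out. In beta6 null against wild type it was -0.227 with quantile normalization, -0.216 with an equal spread and -0.209 with array weights. It was -0.380 to -0.166 there when 1 array was left out, the latter without beta6 null replicate 1. For the TGFb1 group against wild type it was 0.0911 to 0.251 when 1 array was left out, the former without TGFb1 replicate 3, and 0.0736 with array weights and 0.0880 with quantile normalization. The cause was not tested.

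Of the 40 named genes, 29 could be fitted under all 28 alternatives, and the others under 19 or more. In the 3 comparisons, 27, 30 and 23 of the 40 kept their sign wherever they were fitted (20, 24 and 16 of the 29), and 13, 10 and 17 turned it under at least 1, none of them past the threshold there. Medians by compartment under other settings, and correlations without the 2 widest arrays, were added after seeing the data. No paired analysis was possible because replicate numbers only name arrays in accession order and no label pairs single arrays across groups. A suffix in the titles (1 or 2), whose meaning is not stated, is shared across groups; as a block it left the counts at 0 and gave medians of -0.203, 0.475 and 0.215.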
